A study of Homo sapiens with 6 samples.

Results

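The dual-specificity MAP kinase phosphatases are a family of enzymes that switch off MAP kinases, and their genes were followed here in KYSE410 cells after loss of ADAR1. KYSE410 is an established line of human oesophageal squamous carcinoma cells. ADAR1, the product of ADAR, is an enzyme that edits adenosines to inosines where RNA forms a double strand. The members were 10 genes chosen by symbol (DUSP1, DUSP2, DUSP4, DUSP5, DUSP6, DUSP7, DUSP8, DUSP10, DUSP14 and DUSP16), and all 10 were found among the 58735 genes of the deposited count table. A pair of classes was set by known substrate preference. DUSP4, DUSP5, DUSP6 and DUSP7 formed the ERK-directed class, and DUSP1, DUSP8, DUSP10 and DUSP16 the JNK/p38-directed class, while DUSP2 and DUSP14 belonged to neither.

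Polyadenylated RNA was sequenced from 3 siADAR1 samples, labelled as ADAR1 knockdown, and from 3 control samples, titled NC and labelled wild type. The labels list no other treatment for either group and give 1 batch value for all 6 samples. They do not say whether the controls received a non-targeting siRNA, how long after delivery the cells were collected, or whether the replicates were separate cultures. Responses to siRNA delivery or to off-target silencing, and responses to ADAR1 loss, therefore cannot be told apart. The p-values measure only how far these samples spread, and that spread may be technical.

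MAP kinases are activated when a kinase above them phosphorylates a threonine and a tyrosine in their activation loop, and the dual-specificity phosphatases remove both phosphates. ERK kinases mainly carry growth factor signals, and JNK and p38 kinases mainly carry stress and cytokine signals. Many of the phosphatase genes are themselves induced by the kinases they inactivate, so their messenger RNA is often read as a trace of recent pathway activity and as a brake on it. In squamous epithelium the ERK pathway is driven largely by the EGF receptor.

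Total counts ran from 15175619 to 16903792 in siADAR1 libraries and from 15497788 to 17329443 in control libraries, and 15294 genes had enough counts to be tested. Levels are given as counts-per-million (CPM) on library sizes scaled by the trimmed mean of M-values, and differences as log2 fold changes of siADAR1 over control from edgeR's quasi-likelihood test. A gene is said to have risen or fallen where its Benjamini-Hochberg adjusted p over all tested genes was below 0.05. The knockdown target ADAR fell to 88.7 ± 9.72 CPM in siADAR1, against 444 ± 12.1 CPM in control (SD, n = 3 each). Of 9 squamous epithelial markers, 8 had enough counts to be tested, with KRT14 near 0, and their sum lay at 1570 to 1670 CPM in siADAR1 and 1640 to 1670 CPM in control. Within that sum 3 markers rose and 3 fell, with DSG3 at 61.9 to 69.8 CPM in siADAR1 against 16.8 to 26.9 CPM in control, and SFN at 114 to 127 CPM in siADAR1 against 163 to 254 CPM in control. Of 5 leukocyte and 4 endothelial markers, 1 each was tested, the leukocyte one (CSF1R, 0.637 to 0.89 CPM in siADAR1 against 0.0604 to 0.202 CPM in control) rose, and the sums of these lists were at most 1.33 CPM in siADAR1 and 2.15 CPM in control. Of 6 fibroblast markers, LUM and COL1A1 had enough counts to be tested and both rose, the list summing to 72.3 to 85.0 CPM in siADAR1 against 40.1 to 59.4 CPM in control, with DCN at 0 in all libraries; their part in the results below was not tested. Since RNA was taken from whole cultures, a changed share of cells and a changed level per cell cannot be told apart.

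All 10 phosphatase genes had enough counts to be tested, with 88 to 3683 reads per library. DUSP1, DUSP4, DUSP5, DUSP8 and DUSP10 rose in siADAR1, DUSP7 fell, and DUSP2, DUSP6, DUSP14 and DUSP16 did not pass the test. Of all tested genes, 51.0% changed, 26.0% upward and 25.0% downward. The 6 of 10 members that changed in either direction were thus near the general share, whereas 5 of 10 rose and 1 of 10 fell. The siADAR1 libraries all lay above the control libraries for 6 members and below them for 2, where 60.3% of all tested genes did not overlap between groups, 30.7% with siADAR1 higher and 29.7% with siADAR1 lower. The median log2 fold change was 0.56 over the members and 0.0047 over all tested genes. The direction of each of the 10 members was the same under all 17 alternative ways of processing the data.

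**Figure D1:**
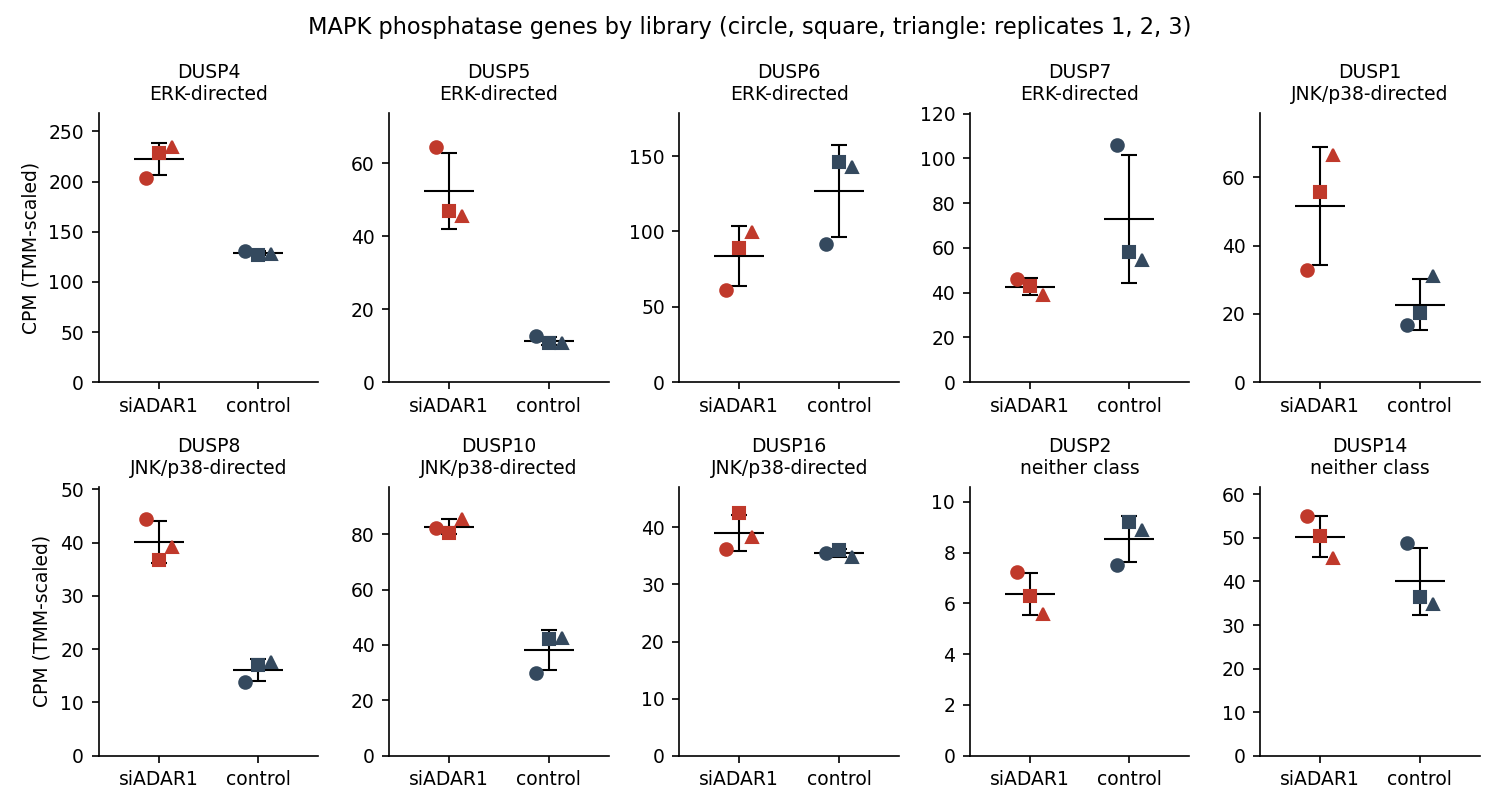
Level of each MAPK phosphatase gene in CPM (linear axis from 0) by library, with siADAR1 left and control right in each panel; symbols are replicates 1 to 3, horizontal lines group means and bars the SD (n = 3). DUSP4, DUSP5, DUSP1, DUSP8 and DUSP10 lay higher in all 3 siADAR1 libraries than in any control library, while DUSP6 and DUSP14 overlapped between the groups.

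Within the ERK-directed class the genes moved in opposite directions. DUSP5 (ENSG00000138166, chromosome 10, 110497838 to 110511544, plus strand, GRCh38) encodes a nuclear phosphatase that acts on ERK and is itself induced by ERK signalling. It stood at 64.3, 47.0 and 45.6 CPM in siADAR1 replicates 1 to 3, against 12.6, 10.8 and 10.6 CPM in control replicates 1 to 3. The lowest siADAR1 library was far above the highest control library, and the groups were widely separated. Its log2 fold change was 2.20 ± 0.15 (SE; edgeR adjusted p = 3.45e-07), the largest of the 10 members. A rise of at least 2-fold that passed the test was seen for 9.85% of all tested genes, and among the members for DUSP5, DUSP8, DUSP1 and DUSP10.

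DUSP4 (ENSG00000120875, chromosome 8, 29333064 to 29350668, minus strand) encodes another inducible nuclear phosphatase, placed with the ERK-directed enzymes here although it can also act on JNK. Its level was 204, 229 and 234 CPM in siADAR1 and 131, 127 and 128 CPM in control. The control libraries were nearly equal, and every siADAR1 library lay well above them. The difference on the log2 scale was 0.79 ± 0.08 (SE; edgeR adjusted p = 8.02e-06).

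DUSP6 (ENSG00000139318, chromosome 12, 89347232 to 89353271, minus strand) encodes the cytoplasmic phosphatase specific for ERK and is widely used as a reporter of ERK activity. It stood at 61.2, 89.3 and 99.8 CPM in siADAR1 and at 91.4, 146 and 143 CPM in control. The number 1 library was the lowest of each group, and control replicate 1 lay within the siADAR1 range. The log2 fold change was -0.60 ± 0.23 (SE) and did not pass (edgeR adjusted p = 0.0633). Without control replicate 1 it was -0.80, and DUSP6 then passed (edgeR adjusted p = 0.00706, the alternatives spanning 1.02e-08 to 0.168). It also passed without siADAR1 replicate 3, at -0.75 with an edgeR adjusted p of 0.0366, and without both libraries numbered 1, at -0.61 with an edgeR adjusted p of 1.02e-08. It did not pass without siADAR1 replicate 1 or 2 (edgeR adjusted p = 0.143 and 0.108) or without control replicate 2 or 3 (0.154 and 0.134). In all, DUSP6 passed under 5 of 17 alternatives. Within each replicate number DUSP6 was lower in siADAR1 than in control, but replicate numbers were not shown to pair the samples.

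DUSP7 (ENSG00000164086, chromosome 3, 52048919 to 52056550, minus strand) encodes the close cytoplasmic relative of DUSP6. It had 46.2, 43.1 and 38.8 CPM in siADAR1 and 106, 58.3 and 54.5 CPM in control. The groups did not overlap, but control replicate 1 stood far above the other controls. DUSP7 fell, with a log2 fold change of -0.77 ± 0.25 (SE) and an edgeR adjusted p of 0.0351. Without control replicate 1 the log2 fold change was -0.41, and the call was kept at an edgeR adjusted p of 0.00557. The call was lost when any 1 siADAR1 library was left out, with edgeR adjusted p of 0.0889 to 0.098, the alternatives spanning 3.17e-06 to 0.126.

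Of the JNK/p38-directed genes, DUSP1, DUSP8 and DUSP10 rose and DUSP16 did not pass. DUSP8 (ENSG00000184545, chromosome 11, 1554044 to 1571920, minus strand), which encodes a phosphatase of JNK and p38, stood at 44.4, 36.7 and 39.2 CPM in siADAR1 and 13.8, 17 and 17.5 CPM in control. Every siADAR1 library lay far above all control libraries. The difference on the log2 scale was 1.32 ± 0.13 (SE; edgeR adjusted p = 4.90e-06). An antisense gene, KRTAP5-AS1, overlaps DUSP8 by 568 bases, and since no strand-marking step is described, reads in that stretch cannot be assigned to a strand. It was counted at 9 to 27 reads in siADAR1 libraries and 0 to 5 in control libraries, against 576 to 788 and 229 to 267 reads for DUSP8. The same limit holds for DUSP1, DUSP6 and DUSP16, which opposite-strand genes overlap by 3106 (AC022217.3), 2257 (AC024909.2) and 6229 bases (AC007619.1). Those genes were counted at no more than 18 reads in any library.

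DUSP10 (ENSG00000143507, chromosome 1, 221701424 to 221742176, minus strand), also known as MKP-5 and active on JNK and p38, had 82.2, 80.5 and 85.6 CPM in siADAR1 and 29.7, 42.3 and 42.4 CPM in control. The siADAR1 libraries lay close together, and control replicate 1 was the lowest of all. DUSP10 rose by 1.12 ± 0.13 (SE) on the log2 scale, with an edgeR adjusted p of 1.49e-05.

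DUSP1 (ENSG00000120129, chromosome 5, 172768090 to 172771195, minus strand) is an immediate early gene whose nuclear product acts on p38 and JNK and, less strongly, on ERK. It stood at 32.8, 55.8 and 66.6 CPM in siADAR1 and 16.7, 20.3 and 31.1 CPM in control. The groups were separated by a narrow gap, with siADAR1 replicate 1 only just above control replicate 3, and the spread within each group was wide. DUSP1 rose by 1.19 ± 0.32 (SE) on the log2 scale, with an edgeR adjusted p of 0.0209. The call was lost without control replicate 1 (edgeR adjusted p = 0.0739), without control replicate 2 (0.0721) and without siADAR1 replicate 2 (0.0565), where the log2 fold change was 0.99, 1.11 and 1.13, the alternatives spanning 6.97e-09 to 0.08.

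The immediate early genes EGR1 and FOS, both induced through ERK, differed between libraries in a similar way. EGR1, chosen after its values were seen, had 103, 440 and 519 CPM in siADAR1 and 15.9, 52.0 and 145 CPM in control, and FOS, also chosen afterwards, 10.9, 19.8 and 83.1 CPM in siADAR1 and 6.65, 5.45 and 65.7 CPM in control. Neither passed the test, with edgeR adjusted p of 0.153 and 0.778. In DUSP1, EGR1 and FOS the number 3 library was the highest of each group. The labels do not say what replicates of 1 number share, and the part of this difference in the DUSP1 result was not tested.

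DUSP16 (ENSG00000111266, chromosome 12, 12474210 to 12562383, minus strand), which encodes the JNK-preferring phosphatase MKP-7, was the member of its class that did not pass. It stood at 36.2, 42.5 and 38.4 CPM in siADAR1 and 35.6, 36.1 and 34.8 CPM in control. The groups did not overlap, by a gap far smaller than the spread within siADAR1, and the log2 fold change of 0.14 ± 0.11 (SE) did not pass (edgeR adjusted p = 0.294).

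DUSP2 and DUSP14, in neither class, did not pass the test. DUSP2 (ENSG00000158050, chromosome 2, 96143166 to 96145440, minus strand), a nuclear phosphatase best known from activated leukocytes, had 7.22, 6.30 and 5.59 CPM in siADAR1 and 7.49, 9.22 and 8.87 CPM in control. Its log2 fold change was -0.42 ± 0.18 (SE; edgeR adjusted p = 0.0735). DUSP14 (ENSG00000276023, chromosome 17, 37489831 to 37513501, plus strand) encodes a small phosphatase that lacks the kinase-binding domain of the others. It had 55.0, 50.4 and 45.5 CPM in siADAR1 and 48.9, 36.5 and 34.8 CPM in control, overlapping through control replicate 1, with a log2 fold change of 0.33 ± 0.13 (SE) and an edgeR adjusted p of 0.0573. Without control replicate 1 DUSP14 passed at 0.48 (edgeR adjusted p = 0.00278) and DUSP2 at -0.51 (edgeR adjusted p = 0.039), within ranges of 0.00044 to 0.241 and 0.012 to 0.235 over all alternatives.

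**Figure D2:**
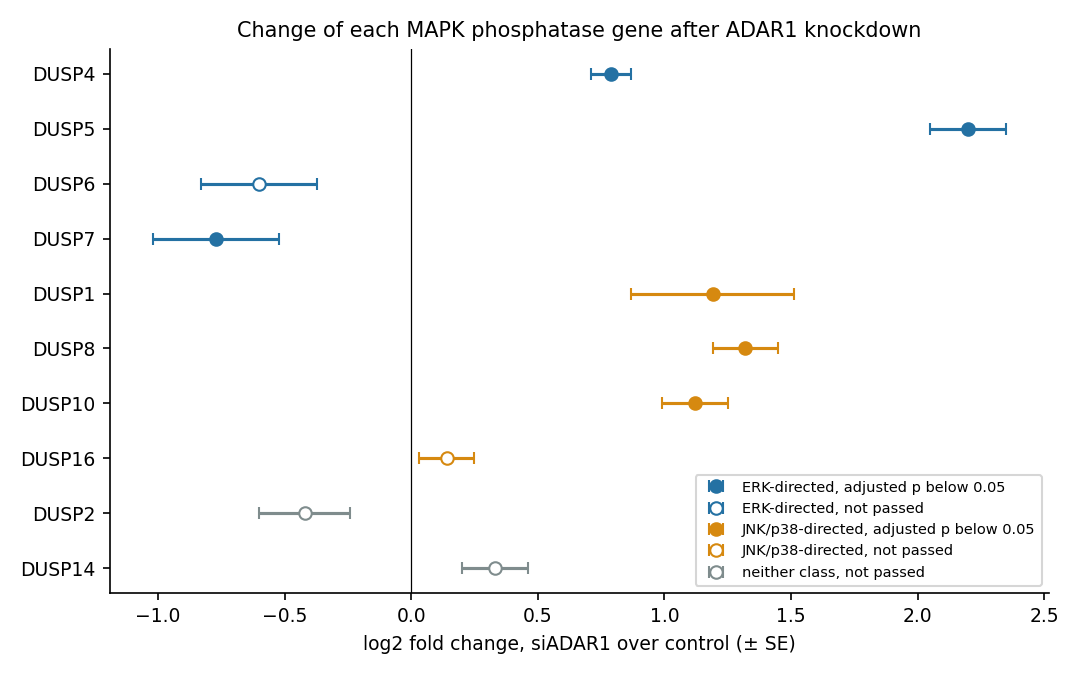
Log2 fold change of siADAR1 over control with its SE for each phosphatase gene, coloured by class; filled points passed an adjusted p of 0.05 in edgeR and open points did not. The ERK-directed genes run from -0.77 (DUSP7) to 2.20 (DUSP5), and the JNK/p38-directed genes from 0.14 (DUSP16) to 1.32 (DUSP8).

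Set side by side, 3 of 4 JNK/p38-directed genes rose and 0 fell, while 2 of 4 ERK-directed genes rose and 1 fell. The median log2 fold change was 0.09 in the ERK-directed class and 1.15 in the JNK/p38-directed class, a difference of -1.06, against a median of 0.0047 over all tested genes. Without control replicate 1 the difference was -0.79. Taken from class means instead of medians it was smaller, at -0.523. By library, the ERK-directed mean minus the JNK/p38-directed mean, each relative to control, was -0.41, -0.54 and -0.62 in siADAR1 and 0.32, -0.07 and -0.25 in control. With 4 genes in each class this is a description, and no test of the class difference was made. The mean log2 CPM of the ERK-directed genes, taken as the deviation from the control mean, was 0.39, 0.43 and 0.43 in siADAR1 and 0.09, -0.03 and -0.06 in control. For the JNK/p38-directed genes it was 0.80, 0.97 and 1.04 in siADAR1 and -0.23, 0.04 and 0.19 in control. Both class means were thus higher in each siADAR1 library than in any control library.

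The ERK-directed mean joined DUSP4 and DUSP5, which rose, with DUSP7, which fell, and DUSP6, which was lower but did not pass. DUSP4 and DUSP5 together deviated by 1.58, 1.43 and 1.43 log2 units in siADAR1 and by 0.09, -0.04 and -0.05 in control, and DUSP6 and DUSP7 together by -0.80, -0.58 and -0.58 in siADAR1 and by 0.08, -0.01 and -0.07 in control. In control replicate 1 the deviation was -0.439 for DUSP6 and 0.607 for DUSP7, which offset each other in the mean. The narrow control range of that pair therefore does not show the spread of either gene. The division into these pairs, made after the values were seen, falls along the known location of the enzymes. DUSP4 and DUSP5 are nuclear, and DUSP6 and DUSP7 are cytoplasmic. Of the 4 inducible nuclear enzymes, a grouping also made with the results known, DUSP1, DUSP4 and DUSP5 rose, where 26.0% of all tested genes rose. DUSP2 did not pass, and its log2 fold change of -0.42 lay in the other direction.

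**Figure D3:**
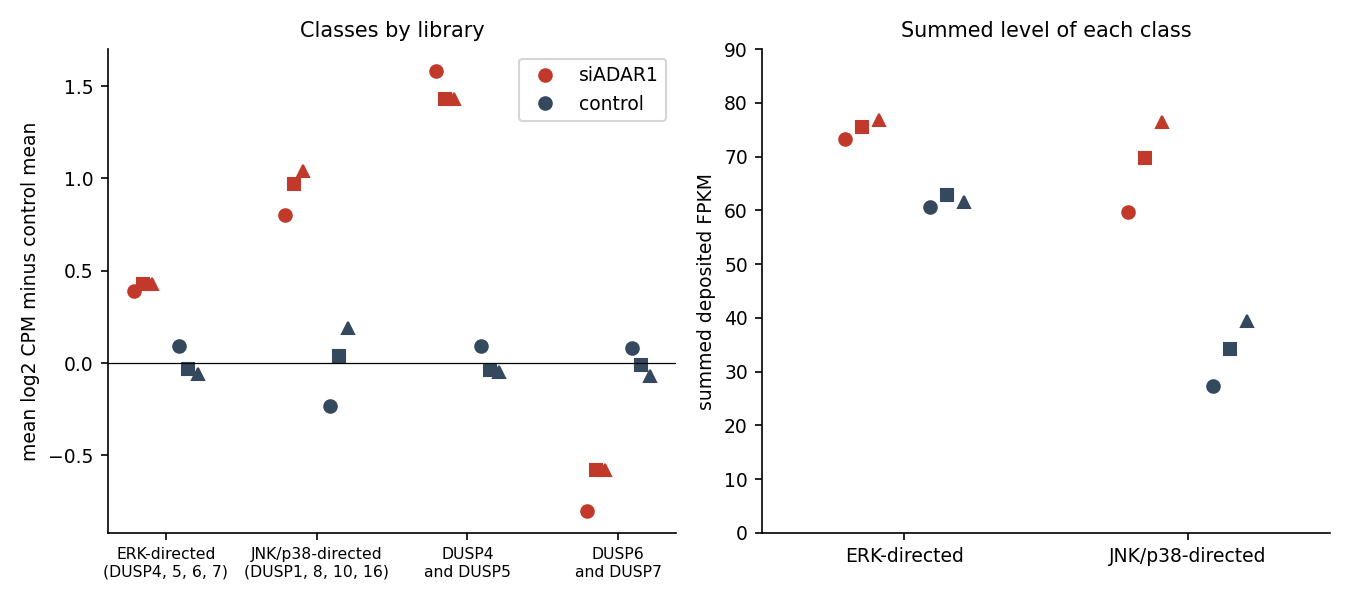
Left, mean log2 CPM of each gene class minus its mean over the control libraries, by library (circle, square and triangle for replicates 1, 2 and 3). Right, summed deposited FPKM of each class, with the axis from 0; the JNK/p38-directed sum lay at 59.7 to 76.4 in siADAR1 and 27.4 to 39.5 in control.

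Levels were compared between genes on the deposited FPKM (fragments per kilobase per-million), which accounts for gene length. In siADAR1 the order was DUSP4 (30.3 ± 2.12), DUSP10 (28.0 ± 0.812), DUSP1 (25.3 ± 8.39), DUSP14 (19.9 ± 1.90), DUSP5 (19.7 ± 3.96), DUSP6 (17.8 ± 4.23), DUSP8 (8.58 ± 0.850), DUSP7 (7.47 ± 0.668), DUSP16 (6.74 ± 0.558) and DUSP2 (3.26 ± 0.421 FPKM; mean ± SD, n = 3). Neighbours in this order overlapped in range except DUSP6 above DUSP8 and DUSP16 above DUSP2. In control the order was DUSP6 (27.1 ± 6.57), DUSP4 (17.6 ± 0.261), DUSP14 (15.9 ± 3.04), DUSP10 (13 ± 2.50), DUSP7 (12.8 ± 5.02), DUSP1 (11.1 ± 3.67), DUSP16 (6.14 ± 0.116), DUSP2 (4.37 ± 0.473), DUSP5 (4.30 ± 0.418) and DUSP8 (3.46 ± 0.434 FPKM). In control the neighbours that did not overlap were DUSP6 above DUSP4, DUSP1 above DUSP16, DUSP16 above DUSP2, and DUSP5 above DUSP8. DUSP6 thus stood at rank 6 in siADAR1 and rank 1 in control, and DUSP5 at rank 5 in siADAR1 and rank 9 in control.

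Summed over each class, the ERK-directed genes gave 75.2 ± 1.81 FPKM in siADAR1 and 61.7 ± 1.05 FPKM in control (SD, n = 3 each). The JNK/p38-directed genes gave 68.6 ± 8.41 FPKM in siADAR1 and 33.7 ± 6.07 FPKM in control. The ERK-directed share of the summed level of both classes was 55.1, 52.0 and 50.2% in siADAR1 and 68.9, 64.7 and 61.0% in control, with no overlap between groups. The ratio of DUSP5 to DUSP6 was 1.86, 0.932 and 0.809 in siADAR1 and 0.245, 0.132 and 0.131 in control.

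The promoter windows of the members were read from RefSeq on GRCh38.p14, from 250 bases before to 50 bases after the annotated start. Windows of 8 of 10 members were read, 9 in all. DUSP4 was left out and DUSP5 had no window, so the motif search does not cover these genes, both of which rose. The cyclic AMP response element (CRE), the palindrome TGACGTCA bound by CREB and ATF factors, was searched on both strands together with its half-site TGACG, which it contains. The windows of DUSP1 and DUSP8, both of which rose, are shown with these letters in capitals. That of DUSP10, which also rose, and that of DUSP6 are shown for comparison and hold neither motif, so that they have no capitals. All 4 are on the minus strand and are written 5′ to 3′ along the gene.
DUSP1, chr5:172771146-172771445: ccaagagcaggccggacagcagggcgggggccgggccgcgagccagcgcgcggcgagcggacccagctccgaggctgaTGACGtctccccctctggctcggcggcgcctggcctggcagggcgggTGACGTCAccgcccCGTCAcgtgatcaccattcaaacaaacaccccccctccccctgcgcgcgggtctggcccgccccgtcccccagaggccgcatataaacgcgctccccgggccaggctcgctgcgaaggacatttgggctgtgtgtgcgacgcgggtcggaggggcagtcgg
DUSP8, chr11:1572222-1572521: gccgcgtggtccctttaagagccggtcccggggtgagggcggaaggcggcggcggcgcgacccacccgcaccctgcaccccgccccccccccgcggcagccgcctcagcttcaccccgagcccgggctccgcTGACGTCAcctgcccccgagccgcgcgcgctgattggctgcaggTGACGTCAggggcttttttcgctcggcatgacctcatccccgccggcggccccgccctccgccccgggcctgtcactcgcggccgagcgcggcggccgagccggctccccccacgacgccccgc
DUSP10, chr1:221742040-221742339: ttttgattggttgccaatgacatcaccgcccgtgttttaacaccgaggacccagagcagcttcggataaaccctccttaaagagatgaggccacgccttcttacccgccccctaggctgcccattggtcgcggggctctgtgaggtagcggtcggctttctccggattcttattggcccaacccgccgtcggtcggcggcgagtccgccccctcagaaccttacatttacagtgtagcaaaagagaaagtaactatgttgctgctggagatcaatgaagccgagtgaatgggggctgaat
DUSP6, chr12:89352452-89352751: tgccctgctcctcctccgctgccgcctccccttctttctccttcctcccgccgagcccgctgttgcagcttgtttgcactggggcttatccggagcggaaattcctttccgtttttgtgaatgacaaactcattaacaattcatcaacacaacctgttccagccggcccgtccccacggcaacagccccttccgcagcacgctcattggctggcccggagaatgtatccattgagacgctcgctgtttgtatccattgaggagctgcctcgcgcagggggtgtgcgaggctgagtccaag

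The DUSP8 window holds 2 full CRE sequences, starting at -118 and -74 from the annotated start, and the DUSP1 window holds 1, at -125, with further half-sites on either side. Of 35116 promoter windows of the same length, 1.85% held a full CRE, 0.0598% held at least 2 and 24.6% held the half-site. The other members whose windows were read had no full CRE, and the half-site was also found once in a second DUSP10 window, at chr1:221736851-221737150. None of the 9 windows read held the AP-1 sequence TGANTCA, a CArG box or an NF-kB motif, which were found in 7.71%, 1.29% and 5.91% of all windows. The annotated starts used here for DUSP6, DUSP10 and DUSP14 lie inside the genes as the count table bounds them. Those of DUSP7, DUSP8 and DUSP16 lie beyond their genes' bounds. Other starts of all these genes are not covered. These matches describe the letters in the windows and do not show binding.

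Several phosphatase messages are known to be short-lived through AU-rich elements in the 3′ untranslated region, where the pentamer ATTTA and the nonamer TTATTTATT are typical. In the principal GENCODE release 29 transcript, DUSP1 held 4 pentamers in 672 bases, or 5.95 per kilobase, and 2 nonamers. DUSP8 held 4 pentamers in 2474 bases (1.62 per kilobase) and 1 nonamer. DUSP4 held 6 in 3962 bases (1.51 per kilobase) and 1 nonamer. DUSP16 held 5 pentamers (1.91 per kilobase), and DUSP2, DUSP10 and DUSP14 held 3 each (4.57, 3.04 and 4.75 per kilobase). DUSP6 held 1 (0.495 per kilobase), and DUSP5 and DUSP7 held 0. Over 12612 tested coding genes the median length of this region was 1120 bases. The median was 2 pentamers, or 1.66 per kilobase, and 8.79% held the nonamer. By density DUSP4 and DUSP8, like DUSP5, DUSP6 and DUSP7, lay below that median. DUSP1 and DUSP10, which rose, and DUSP2, DUSP14 and DUSP16, which did not pass, lay above it. The nonamer was thus present in 3 members that rose and absent from DUSP5 and DUSP10, which also rose. Windows of 30 bases around the first nonamer of DUSP1 and of DUSP8, with the nonamer in capitals and written along the minus strand, show the element.
DUSP1, chr5:172768642-172768671: gggctggtccTTATTTATTtaacttcaccc
DUSP8, chr11:1556373-1556402: tttcgattttTTATTTATTtaagctgttca

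Of 6 genes for proteins that bind AU-rich elements, 2 rose and 3 fell, where 26.0% of all tested genes rose and 25.0% fell. The median log2 fold change was -0.27 against 0.0047 over all tested genes. ZFP36 (tristetraprolin) and ZFP36L1, which promote decay of such messages, rose by 1.25 ± 0.15 and 1.34 ± 0.09 (SE) on the log2 scale, which is used for all such differences in the lists that follow. ELAVL1, which encodes the stabilising protein HuR, fell to 103 ± 13.4 CPM in siADAR1, against 188 ± 9.72 CPM in control, a log2 fold change of -0.86 ± 0.10. KHSRP and HNRNPD of the same list, chosen after their values were seen, also fell, with log2 fold changes of -0.58 ± 0.09 and -0.35 ± 0.07. The list thus gives no single direction for message decay, which was not measured. Of 10 transcription factors known at phosphatase gene promoters, 6 rose and 1 fell, with a median of 0.56. ETS2 and ETS1 rose by 1.16 ± 0.11 and 0.96 ± 0.09, and the glucocorticoid receptor gene NR3C1, whose product induces DUSP1, by 0.61 ± 0.09.

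Genes upstream of the ERK phosphatases moved unevenly. Of 8 ligands of the EGF receptor family, 5 rose and 0 fell, where 26.0% of all tested genes rose and 25.0% fell. The median log2 fold change of these ligands was 0.85. AREG, which encodes amphiregulin, reached 57.7 ± 14.6 CPM in siADAR1, against 16 ± 1.49 CPM in control (SD, n = 3 each). HBEGF rose by 1.34 ± 0.14 (SE) and NRG1 by 0.80 ± 0.12. Of 18 genes from the receptor to ERK, 2 rose and 8 fell, with a median of -0.20. The kinase gene BRAF rose by 0.90 ± 0.12, while MAP2K1, which encodes the ERK kinase MEK1, and the adaptor gene GRB2 fell, with log2 fold changes of -0.44 ± 0.08 and -0.42 ± 0.08. With library totals alone this list gave 4 higher and 4 lower, where the median of all genes was itself 0.122. The number of its genes that fell was 5 without siADAR1 replicate 1, 2 or 3 or without control replicate 2, and the median was -0.13 without siADAR1 replicate 1. The number that rose was 1 without siADAR1 replicate 3 or control replicate 1.

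Genes that report ERK output went in both directions, as did tested genes in general, of which 26.0% rose and 25.0% fell. Of 9 such ERK output genes, leaving out the phosphatases, 4 rose and 2 fell, and the median log2 fold change was 0.37. CCND1, the cyclin D1 gene, fell to 350 ± 24.9 CPM in siADAR1, against 1300 ± 47.8 CPM in control, and ETV4, an ETS factor gene that follows ERK activity, had a log2 fold change of -0.56 ± 0.10 (SE). PHLDA1, another ERK-induced gene, rose by 1.25 ± 0.10. Of 8 genes for the Sprouty, SPRED and MIG6 feedback inhibitors, which act on the receptor and on RAS rather than on ERK itself, 3 rose and 1 fell, with a median of 0.39. ERRFI1, the MIG6 gene, rose by 1.09 ± 0.14, SPRY2 by 1.06 ± 0.17 and SPRED1 by 0.62 ± 0.12. With library totals alone 4 of these inhibitors rose and 0 fell. Their median was 0.15 without siADAR1 replicate 1 and 0.16 without control replicate 2, and that of the ERK output genes was 0.24 without control replicate 2.

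Of 28 tested genes of the JNK and p38 cascade, 10 rose and 4 fell, where 26.0% of all tested genes rose and 25.0% fell. The median log2 fold change of the cascade was 0.02 (0.02 to 0.05 with 1 library left out). GADD45B, which encodes an activator of the kinase MAP3K4 above p38 and JNK, reached 276 ± 53.5 CPM in siADAR1, against 35.0 ± 5.71 CPM in control. TAB3, an adaptor of the kinase TAK1, rose by 1.29 ± 0.11 (SE), and MAP3K1, which encodes the kinase MEKK1, by 1.12 ± 0.10. Of the genes for the kinases these phosphatases act on, MAPK8 (JNK1) and MAPK14 (p38 alpha), chosen after their values were seen, had log2 fold changes of 0.05 ± 0.11 and -0.02 ± 0.09 and did not pass (edgeR adjusted p = 0.729 and 0.849). Of 14 tested AP-1 and small MAF genes, 12 rose and 0 fell, with a median of 0.75. JUN rose by 1.32 ± 0.12, MAFF by 1.32 ± 0.13 and FOSL1 by 0.86 ± 0.09.

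**Figure D4:**
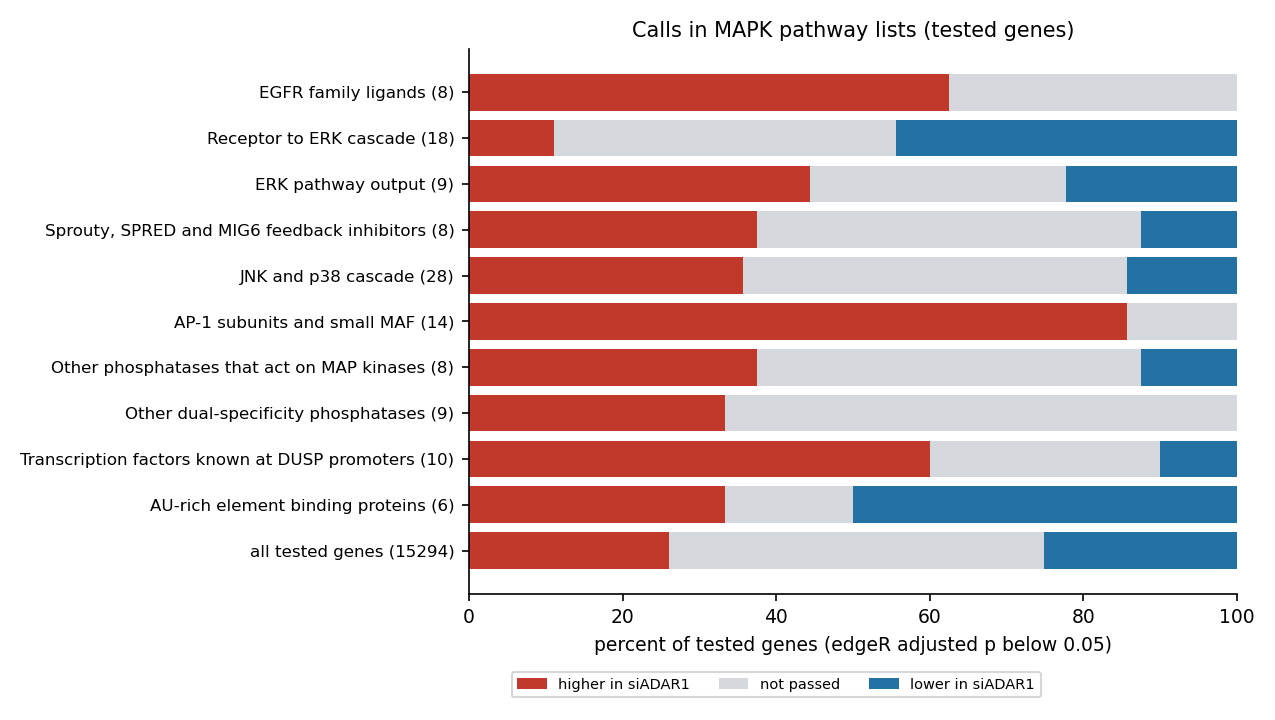
Percent of tested genes in each MAPK pathway list that were higher (red), not passed (grey) or lower (blue) in siADAR1, with the number tested in brackets. AP-1 genes had 12 of 14 higher, the receptor-to-ERK genes 8 of 18 lower, and all tested genes 26.0% higher and 25.0% lower.

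Other phosphatases were examined beside the members. Of 8 tested genes for other enzymes that act on MAP kinases, 3 rose and 1 fell, where 26.0% of all tested genes rose and 25.0% fell. The median log2 fold change of these 8 was 0.19. DUSP3, which encodes a small phosphatase of ERK and JNK, reached 118 ± 10.6 CPM in siADAR1, against 61.2 ± 2.46 CPM in control. DUSP9, the third cytoplasmic ERK-preferring enzyme beside DUSP6 and DUSP7, fell to 3.38, 4.84 and 4.32 CPM in siADAR1, against 12.9, 21.4 and 17.4 CPM in control. Its log2 fold change was -2.04 ± 0.21 (SE; edgeR adjusted p = 7.06e-06). PTPRR, a tyrosine phosphatase that binds ERK and p38, rose by 0.49 ± 0.14. Without siADAR1 replicate 1 the number that fell was 2 and the median 0.12. Of 9 tested genes for the remaining dual-specificity phosphatases, 3 rose and 0 fell, with a median of 0.24, and 5 rose with library totals alone. Without control replicate 2 that median was 0.40. DUSP15 rose to 9.35 ± 3.16 CPM in siADAR1, against 0.789 ± 0.680 CPM in control, where replicate 1 had 1.57 CPM and the others 0.337 and 0.46 CPM. Its log2 fold change of 3.53 ± 0.45 was 4.52 without control replicate 1 and 1.49 on FPKM with a pseudocount of 1. STYXL1 rose by 0.56 ± 0.09 and DUSP11 by 0.37 ± 0.12. The DUSP11 call was lost without siADAR1 replicate 1 (0.22, edgeR adjusted p = 0.116) and without control replicate 3 (0.30, edgeR adjusted p = 0.108), within a range of adjusted p of 0.00594 to 0.131 across alternatives.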

How the data were processed

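RNA from 6 KYSE410 samples was sequenced after oligo-dT selection. The submitters' processing notes list HISAT2 2.0.5, fastp and CASAVA without saying what each did. Which counter, build and annotation were used is not given in the sources used here. The authors deposited whole-number read counts per gene without normalization, and FPKM per library, per the file headers and values. In each library the FPKM implied a library size of 1.047 to 1.061 of the count total in siADAR1 and 0.966 to 0.97 in control, a factor set by the authors. All 58735 gene coordinates equalled those of GENCODE release 29 on GRCh38. Columns were assigned by group and replicate number as in the titles. Another 8 columns, which repeat the FPKM and add group means, were not used.

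The tests on counts ran under edgeR 4.0.16 (R 4.3.3): filterByExpr (minimum count 10), TMM factors (1.04 to 1.05 in siADAR1, 0.957 to 0.963 in control), the robust quasi-likelihood two-sided test of group, with no covariate, and Benjamini-Hochberg adjustment over 15294 genes. An SE is the log2 fold change divided by the square root of F. Reads carry no molecular identifiers. The alternatives used limma 3.58.1, DESeq2 1.42.0, other scalings and filters, a replicate block, left-out libraries, and log2 of FPKM plus 0.1 or 1 with a mean of at least 0.5 FPKM or no filter. No 2 replicates agreed within counting noise (chi-square per degree of freedom 3.95 and 5.02 between replicates 2 and 3 of siADAR1 and of control, and 14.1 to 18.0 between replicate 1 and the others of its group). The procedure was tested on simulated data. Members, lists and tests were chosen with earlier results of these data known. Named genes were the members, ADAR and the 3 genes with the smallest p in each of 10 pathway lists, others being stated as chosen afterwards. Lists are described by counts and medians, with no set test.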

Additional observations from a re-analysis of the deposited data

How the results depend on the processing

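Over 17 alternatives all 10 phosphatase genes kept their direction, and DUSP4, DUSP5, DUSP8 and DUSP10 passed under every one. The number of members changed stayed within 1.5 times of 6 under each alternative, between 4 and 9. The number that fell, 1 in the fit reported, was 0 with library totals alone, with limma-voom and on unfiltered FPKM, 2 without a filter on low counts and on FPKM with a pseudocount of 0.1, and 3 without both libraries numbered 1. It ranged from 0 to 3 when 1 library was left out. The member that fell was not always DUSP7. It was DUSP6 without siADAR1 replicate 3, and DUSP2 on filtered FPKM with a pseudocount of 1. DUSP7 passed under 10 of 17 alternatives and DUSP1 under 12 of 17. With library totals alone the median of all genes moved to 0.122, and 4892 genes were higher and 2887 lower (62.9% higher, against 50.9% with 3973 and 3831); 6 members then rose and 0 fell. The ERK-directed median, 0.09, was 0.21 with library totals alone and 0.20 without both libraries numbered 1, and 0.03 to 0.21 with 1 library left out. The difference between class medians ranged from -1.15 to -0.79 with 1 library left out. The cause of these differences was not tested.

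Replicate numbers were not shown to pair the samples: deviations of same-numbered libraries correlated at 0.251, 0.0844 and 0.106 (replicate 1 with other numbers, -0.13 to -0.169), and control replicate 2 correlated better with siADAR1 replicate 3 (0.0917) than with its own number. With the replicate number as a block, 4396 genes rose and 4186 fell, and 6 members rose and 2 fell: DUSP6 (-0.60, edgeR adjusted p = 4.29e-06) and DUSP14 (0.34, edgeR adjusted p = 0.00688) then passed, and no other member's call changed. Each group has 3 libraries, which limits precision for DUSP1, DUSP6 and DUSP7, and differences within the spread of these libraries were not detectable. DUSP2 had 88 to 137 reads per library, so its values carry the largest counting error of the members.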
